A study of Drosophila melanogaster with 29 samples.

Results

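The odorant binding protein, odorant receptor and gustatory receptor genes of Drosophila melanogaster were examined in adult males and females of 5 laboratory strains. They were taken as the probe sets with exactly 1 gene symbol in the platform's annotation whose symbol starts with Obp, Os- or Pbprp, or with Or or Gr and a digit, and the brightest probe set by its mean over the 29 arrays stood for each gene. This gave 116 of the 10844 genes with a probe set of 1 symbol, namely 36 binding protein genes (35 Obp genes and Os-C), 52 odorant receptor genes and 28 gustatory receptor genes. All 116 were found in the RefSeq gene table of Release 6 of the genome, and 4 further probe sets were left out because they carry several symbols.

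Odorant binding proteins are small secreted proteins that bind odorants, pheromones and other small ligands in the fluid of olfactory and taste sensilla, and several are made outside the sense organs, in the fat body, the gut and the male reproductive tract. Odorant receptors are ligand-gated channels in the dendrites of olfactory neurons, where a tuned receptor pairs with the common co-receptor Orco. Gustatory receptors serve taste neurons tuned to sugars or bitter compounds, and Gr21a and Gr63a together detect carbon dioxide.

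RNA was hybridised to Affymetrix Drosophila arrays from males and from virgin females of 5 long-term wild-type laboratory strains, with 3 arrays in each of the 10 groups of strain and sex except the Hikone females, which have 2. The strains are labelled France, Antigua, Glasgow Oregon R, Cambridge Oregon R and Japan Oregon R (Hikone), and are all maintained in 1 department. The study's methods, however, name only the Glasgow and Cambridge stocks as Oregon-R and give Hikone as a separate wild-type strain from Japan. The strains are called France, Antigua, Glasgow, Cambridge and Hikone here. Flies were kept at 25°C and labelled as 0 to 6 h after eclosion, except that the label of France female replicate 3 gives 3 to 5 days, whereas the study's methods give 0 to 6 h for all. RNA was extracted separately for each sample. The labels name adults and no dissected organ, so a lower value of a gene can come from fewer cells of a type or from less RNA per cell, which cannot be told apart. Values are GCRMA summaries on the log2 scale, where a difference of 1 is 2-fold, and they give no scale on which the level of 1 gene can be set against that of another.

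The labels of sex were checked on transcripts of the reproductive tract, and libraries were compared. All 9 testis, 9 accessory gland and 3 ejaculatory duct and bulb markers measured were called higher in males, and all 3 yolk and 6 eggshell markers higher in females. A pair of arrays stood apart, since Cambridge male 1 had a yolk marker mean of 10.03 against 2.51 to 5.33 in the other male arrays, and Cambridge female 3 had a testis marker mean of 3.82 against 2.12 to 2.49 in the other female arrays. Of the antenna markers only a10 reached a group mean of 5, while Orco lay between 1.68 and 2.10 on all 29 arrays, and none of the 5 neuron markers measured had a group mean of 5. The authors applied quantile normalisation, but the medians of the deposited arrays still ran from 4.30 to 4.61 (log2). The median difference between the sexes (male minus female, log2) over all 13966 probe sets was -0.08 as deposited, -0.20 after centring each array on its median and -0.02 after centring on the probe sets under 5.

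Binding protein genes were well represented above a group mean of 5 and receptor genes were not. A group mean of at least 5 (log2) was reached by 18 of the 36 binding protein genes, in at least 1 of the 10 groups, and by 0 of the 80 receptor genes. The 18 genes were Obp18a, Obp19b, Obp19c, Obp19d, Obp28a, Obp44a, Obp56a, Obp56d, Obp56e, Obp56g, Obp56h, Obp57c, Obp69a, Obp83b, Obp99a, Obp99b, Obp99c and Os-C, and 11 of them were at least 5 in all 10 groups. Thus 84.5% of the members stayed under 5, against 42.0% of the 13966 probe sets tested and 35.3% of the genes represented by their brightest probe set. Near the threshold, the highest group means were 5.62 for Obp56h and 5.87 for Obp19b just inside, and 4.25 for Obp73a and 4.03 for Obp59a just outside.

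**Figure D1:**
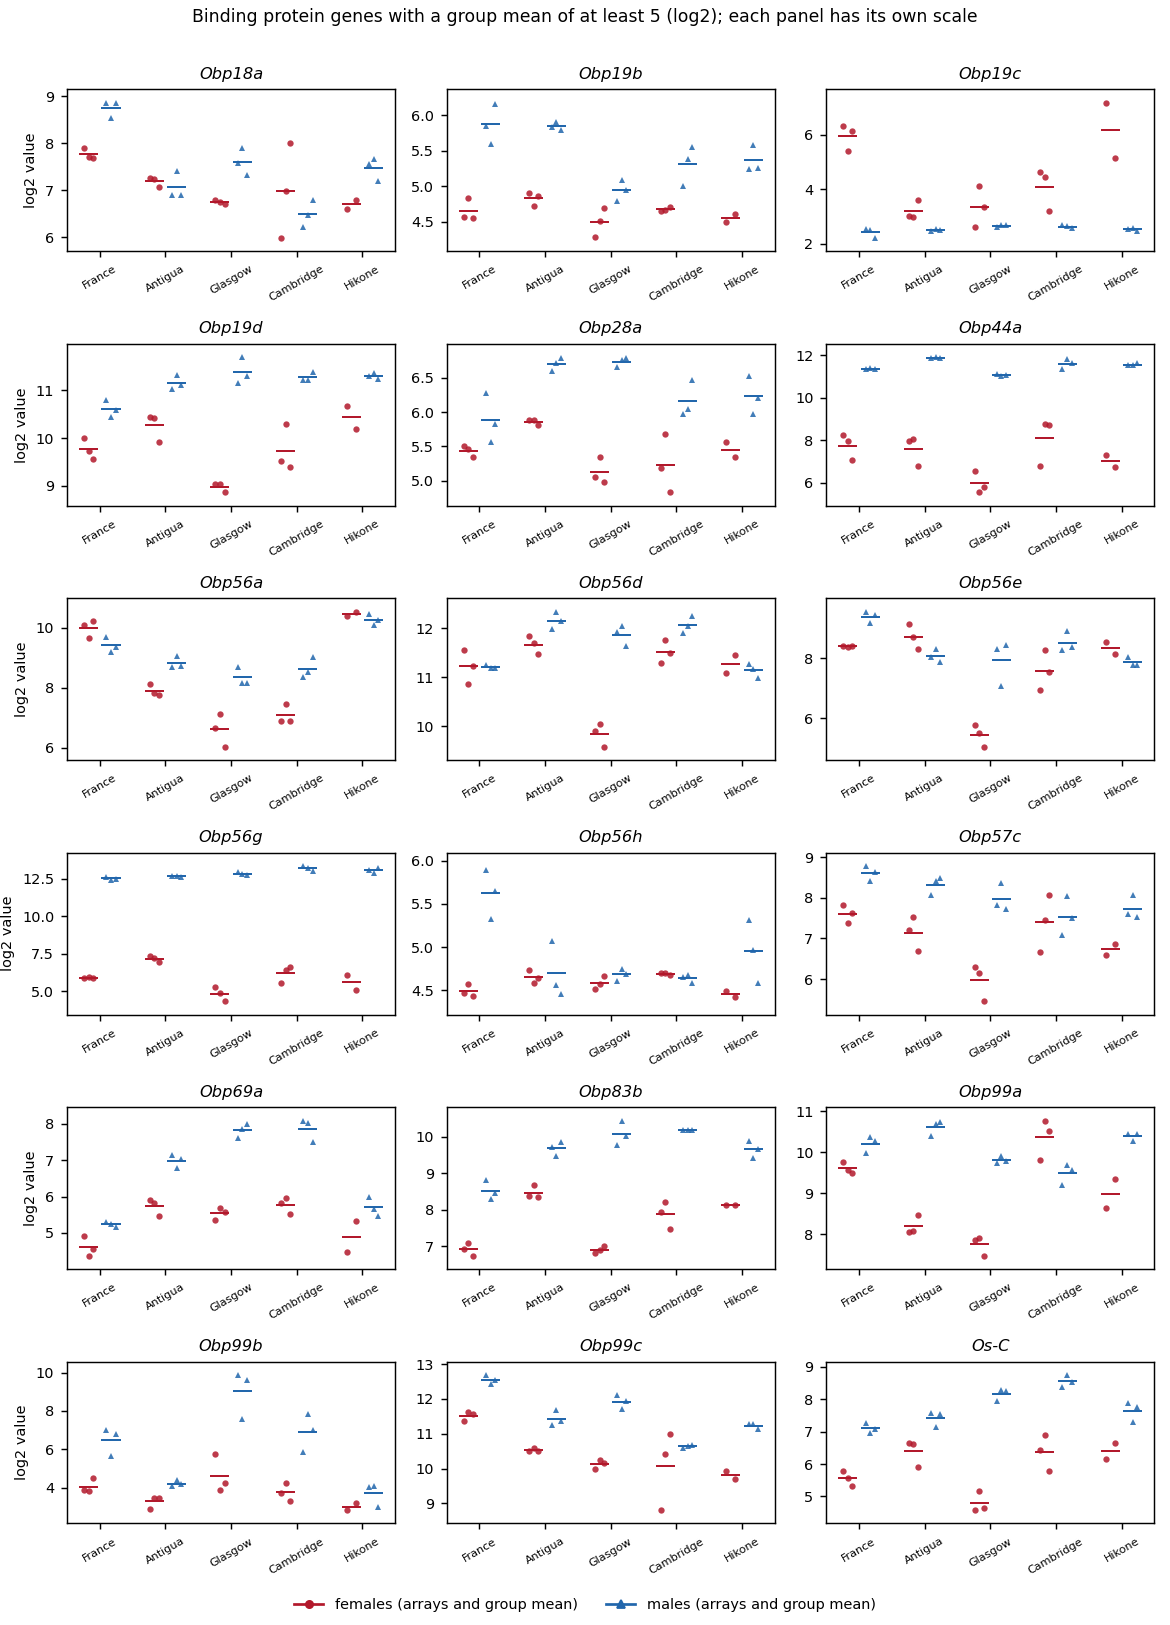
Log2 values of the 18 binding protein genes with a group mean of at least 5, by strain (horizontal axis) and sex; points are arrays, bars are group means, and each panel has its own vertical scale. The male arrays of Obp56g lie between 12.46 and 13.34 and the female arrays between 4.35 and 7.38, Obp19c is higher in females, and Obp99a is higher in females in Cambridge alone.

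Males and females were compared first. Of the 116 genes 15 were called (limma, Bonferroni-adjusted p below 0.01 over all probe sets), and all 15 were binding protein genes. Higher values in males were called for 14, which is 12.1% of the members and 38.9% of the 36 binding protein genes, where 18.1% of all probe sets were called in that direction. Obp19c was the only member called higher in females, 0.862% of the members, against 28.8% of all probe sets. With each array centred on its median 12 members were called higher in males and 89 higher in females. After a repeated quantile normalisation these counts were 12 and 54. Of all probe sets 72.2% and 56.1% were called for sex in these settings, both directions together. Among probe sets that stayed under 5 in every group, 2.81% were called higher in males and 5.64% higher in females, and of the 98 members under 5 only Obp8a was called, as higher in males. The median difference between the sexes was 0.28 for the binding protein genes and -0.10 for the receptor genes, beside -0.08 for all probe sets and -0.07 for probe sets under 5.

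**Figure D2:**
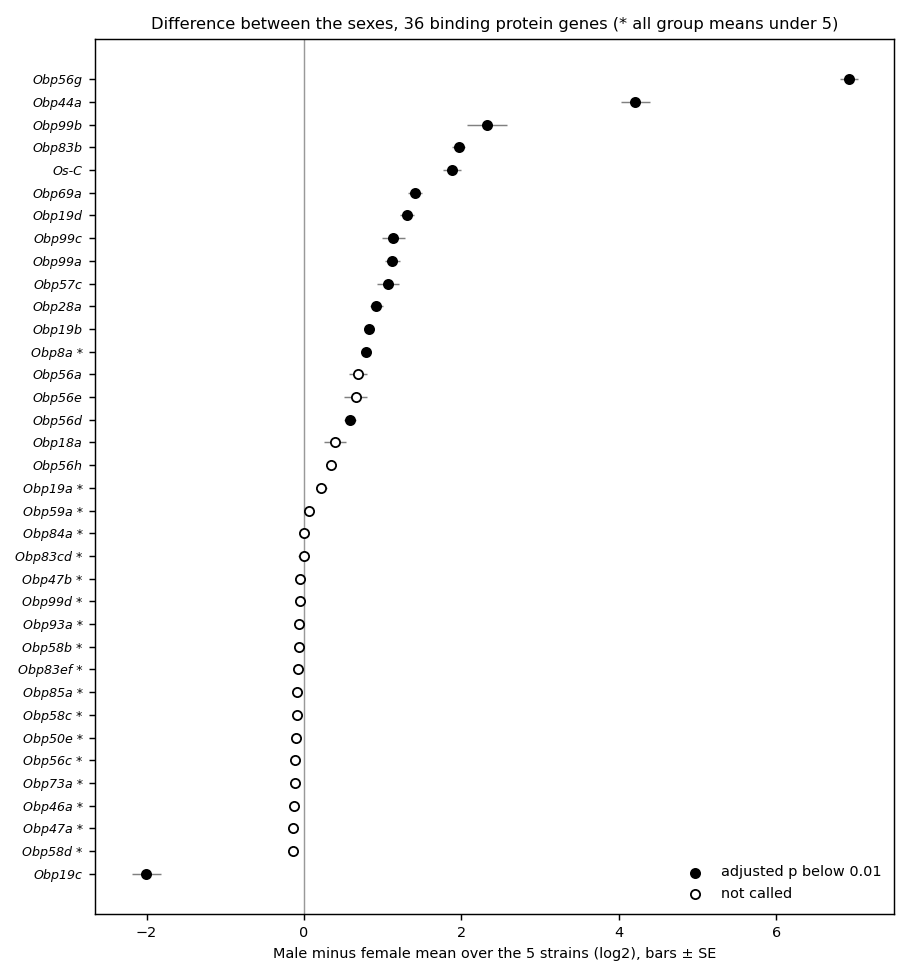
Difference between the sexes (male minus female mean over the 5 strains, log2, horizontal axis) for the 36 binding protein genes; bars are ± SE of the limma fit, filled points have an adjusted p below 0.01, and an asterisk marks genes with all group means under 5. Obp56g at 6.93 and Obp44a at 4.21 lie far to the right, Obp19c at -2.0 lies alone on the left, and the genes marked with an asterisk other than Obp8a lie near 0.

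The binding proteins of seminal fluid included the member that differed most between the sexes. Obp56g, a component of the seminal fluid made in the ejaculatory bulb, lay at 12.46, 12.84 and 13.34 (lowest, median and highest of the 15 male arrays) and at 4.35, 5.93 and 7.38 over the 14 female arrays. No female array came near any male array in any strain. The difference was 6.93 ± 0.11 (SE), or 122-fold, with an adjusted p of 9.54e-21. Within strains it ran from 5.49 in Antigua to 8.02 in Glasgow. Females themselves differed among strains (adjusted p 0.0021), with 7.38, 7.20 and 6.97 in Antigua, 6.11 and 5.12 in Hikone, 5.87, 5.97 and 5.88 in France, 5.54, 6.43 and 6.62 in Cambridge and 5.27, 4.90 and 4.35 in Glasgow. The Antigua females thus lay above all other females, and the Glasgow females below all others but the lower Hikone array, which fell among them. This call for females was lost when Antigua female 1 or 2 or Glasgow female 2 or 3 was left out, with an adjusted p of up to 0.0315. The mean of 3 ejaculatory duct and bulb markers, all at least 5 in some group, was 5.22, 5.45 and 7.63 in Cambridge females and 6.35 and 5.29 in Hikone females, in the order of Obp56g within each strain, and it was lowest in Glasgow females, at 4.92, 4.88 and 4.85. In Antigua females, the highest for Obp56g, it was 5.48, 5.28 and 5.40, and in France females 5.38, 5.48 and 5.28. Within each of these strains the order was not that of Obp56g. Of the 3 markers only PebIII was lowest in Glasgow females, at 10.72, 10.45 and 10.36 against 11.33 to 12.31 in other females. Anp and EbpII lay at 1.67 to 2.47 on most female arrays. Exceptions were Cambridge female 3 (Anp 3.85, EbpII 7.26) and, for EbpII, Hikone female 1 (4.97). The part of these markers in the values of females was not tested.

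Obp8a, another seminal fluid protein and a member with all group means under 5, was the exception among the dim genes. Its male arrays read 3.51, 4.05 and 3.45 in Antigua, 3.93, 3.90 and 3.68 in Glasgow, 2.74, 2.46 and 2.79 in Hikone, 2.25, 2.24 and 2.54 in Cambridge, and 2.13, 2.21 and 2.15 in France. All female arrays of Obp8a lay between 2.02 and 2.23. Antigua and Glasgow males therefore stood above every other group, Hikone males stood above all females, and France males overlapped with females. Cambridge males 1 and 2, at 2.25 and 2.24, barely exceeded the highest female array, at 2.23. Over the strains Obp8a was higher in males by 0.79 ± 0.05 (adjusted p 2.36e-08), and both strain in males (adjusted p 1.43e-08) and the interaction of sex with strain (1.36e-05) were called. The accessory gland marker mean was 10.48 to 10.77 in Antigua males, 10.88 to 11.14 in Glasgow males and 11.27 to 11.47 in Cambridge males. All 9 of these markers were at least 5 in some group, and their part in the strain differences of Obp8a was not tested. Of the 7 seminal fluid binding proteins listed, 3 were measured (Obp8a, Obp56e and Obp56g), of which 2 were higher in males.

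Obp56e, the third of these, changed its order between strains. Values in males were 9.54, 9.18 and 9.44 in France, where the females read 8.42, 8.38 and 8.41. In Glasgow the males read 8.30, 7.06 and 8.43 and the females 5.79, 5.51 and 5.06. In Antigua, by contrast, the females read 9.14, 8.69 and 8.32 and the males 8.03, 8.31 and 7.88. Males lay above females in France, Glasgow and Cambridge, while in Antigua and Hikone females lay above males, with means higher by 0.64 and 0.48. The sexes overlapped in no strain, but only just in Cambridge (lowest male 8.28, highest female 8.27) and in Antigua (lowest female 8.32, highest male 8.31). The difference over the strains was 0.66 and was not called, and the interaction was not called either. Strains differed over both sexes (adjusted p 0.00122) and in females (1.45e-04), where the Glasgow females lay below all others, and the first of these calls was lost without Glasgow female 3 (adjusted p 0.011).

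Several binding proteins of the antenna were higher in males. Of 8 antennal binding proteins listed 7 were measured, of which 4 were called higher in males and 0 higher in females, and the other 3 (Obp19a, Obp59a and Obp84a), which had all group means under 5, were not called. Obp83b, also called OS-E and found in the fluid of trichoid sensilla, read 8.28, 9.76 and 10.43 in males and 6.74, 7.70 and 8.66 in females (lowest, median, highest). The groups overlapped over all strains but in no single strain, and the difference was 1.97 ± 0.08 (3.91-fold, adjusted p 2.43e-12). Obp69a, an antennal binding protein first named Pbprp1, read 5.17, 7.03 and 8.08 in males and 4.38, 5.49 and 5.96 in females. It was higher in males by 1.41 ± 0.09 (2.66-fold, adjusted p 1.67e-08), and in each strain all males lay above all females. Obp19d, first named Pbprp2, was higher in males by 1.31 ± 0.09 (2.47-fold, adjusted p 4.07e-08), and Obp28a, first named Pbprp5, by 0.92 ± 0.09 (1.89-fold, adjusted p 9.17e-06). For these genes too no male array was below a female array of the same strain. Os-C, named for an olfactory-specific transcript, read 6.97, 7.76 and 8.74 in males and 4.58, 5.86 and 6.89 in females, with no overlap over all arrays and a difference of 1.88 ± 0.12 (3.67-fold, adjusted p 4.42e-09). All 5 eye markers measured were also called higher in males, with a median difference of 1.42. Of the 4 antenna markers only a10 was called higher in males, and only a10 had a group mean of at least 5. The median difference of the antenna markers was 0.34. Of the 5 neuron markers 0 were called, but all their group means were under 5, where 2.81% of probe sets were called higher in males. The part of head RNA in these differences was not tested.

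Of the 8 taste organ binding proteins listed, Obp57c and Obp19b had a probe set of their own, and both were called higher in males. Obp57c read 7.08, 8.07 and 8.77 in males and 5.46, 7.04 and 8.06 in females, with a difference of 1.06 ± 0.14 (2.09-fold, adjusted p 0.00337). In Cambridge the sexes overlapped, at 7.08, 8.04 and 7.49 in males and 6.66, 7.46 and 8.06 in females. The call for Obp57c was lost without any of France male 1, France female 2, Antigua male 2, Antigua male 3, Hikone female 1 and Hikone female 2 (adjusted p up to 0.0228) and when arrays were centred on their medians (0.0248). Obp19b lay close to the threshold of 5, at 4.79, 5.55 and 6.16 in males and 4.29, 4.66 and 4.91 in females, and was higher in males by 0.82 ± 0.06 (1.77-fold, adjusted p 3.92e-07) without overlap in any strain.

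Obp44a, which is in none of the role lists, had the second largest difference. Its male arrays read 11.01, 11.53 and 11.90 and its female arrays 5.56, 7.18 and 8.77 (lowest, median, highest). The male values were close together, with an SD of at most 0.24 in a group, and the female values were not, with 6.80, 8.77 and 8.73 in Cambridge, 7.96, 8.08 and 6.77 in Antigua and 6.55, 5.56 and 5.80 in Glasgow. The difference for Obp44a was 4.21 ± 0.19 (18.5-fold, adjusted p 7.93e-12), from 3.51 in Cambridge to 5.09 in Glasgow. Smaller differences were called for Obp99c and Obp56d. Obp99c was higher in males by 1.14 ± 0.14 (2.20-fold, adjusted p 0.00117). In Cambridge its sexes overlapped, at 10.59 to 10.68 in males and 8.81 to 10.99 in females. Obp56d was higher in males by 0.58 ± 0.08 (1.50-fold, adjusted p 0.00282). The call for Obp56d was lost without Hikone female 1 (adjusted p 0.0206) and after centring on array medians (0.147). Not called were Obp18a at 0.39, Obp56a at 0.69 and Obp56h at 0.34.

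Obp99b, also known as tsx and described in the fat body of males, was higher in males by 2.32 ± 0.26 (adjusted p 2.08e-04). Within strains the difference ran from 0.70 in Hikone, where the sexes overlapped, to 4.39 in Glasgow. Obp99b varied more among male groups than any other binding protein gene. The male arrays read 9.86, 7.60 and 9.60 in Glasgow, 5.88, 7.85 and 7.01 in Cambridge, 7.03, 5.64 and 6.82 in France, 4.06, 4.38 and 4.19 in Antigua and 4.04, 4.09 and 3.01 in Hikone. The range of group means for Obp99b was 5.31 in males and 1.62 in females (log2). No fold is given, since the lowest group of each sex lay within the range of the receptor genes. Glasgow males were the highest on average, with 1 array inside the range of the Cambridge males, France and Cambridge males overlapped, and Antigua and Hikone males overlapped below them at values under 5. Strains differed in males (adjusted p 4.59e-04) and over both sexes (0.00379). The call over both sexes was lost without any of 12 arrays, namely all Antigua males, Antigua females 1 and 2, Glasgow males 1 and 3, Glasgow females 1 and 3, Hikone male 3 and both Hikone females, with an adjusted p of up to 0.0244, whereas that in males held with each array left out (highest 0.00605).

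Markers of the fat body moved with Obp99b in part of the arrays. The mean of 3 fat body markers (Lsp2, Fbp1 and Fbp2, all at least 5 in some group) was 9.65 in Glasgow male 1 and 9.42 in Glasgow male 3, and 4.84 in Glasgow male 2, which was also the lowest of the Glasgow males for Obp99b. Over all male arrays the range of the fat body mean by group was 4.84 to 9.65 in Glasgow, 4.57 to 6.89 in Cambridge, 4.39 to 5.61 in France, 4.23 to 5.13 in Hikone and 3.81 to 3.95 in Antigua. Among females, Glasgow female 1 had the highest value of Obp99b, 5.75, and the highest fat body mean, 6.03. None of these markers was called for sex or strain. Glasgow male 2, whose fat body mean lay within the range of the Hikone males, read 7.60 for Obp99b against 3.01 to 4.09 in Hikone. The single markers did not match, however. Fbp1 and Fbp2 read 5.02 and 5.11 in Glasgow male 2, above all Hikone males at 3.48 to 4.15 and 3.52 to 4.07. Lsp2 was lower in Glasgow male 2 than in any Hikone male. The part of the fat body markers in the result was not tested.

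**Figure D3:**
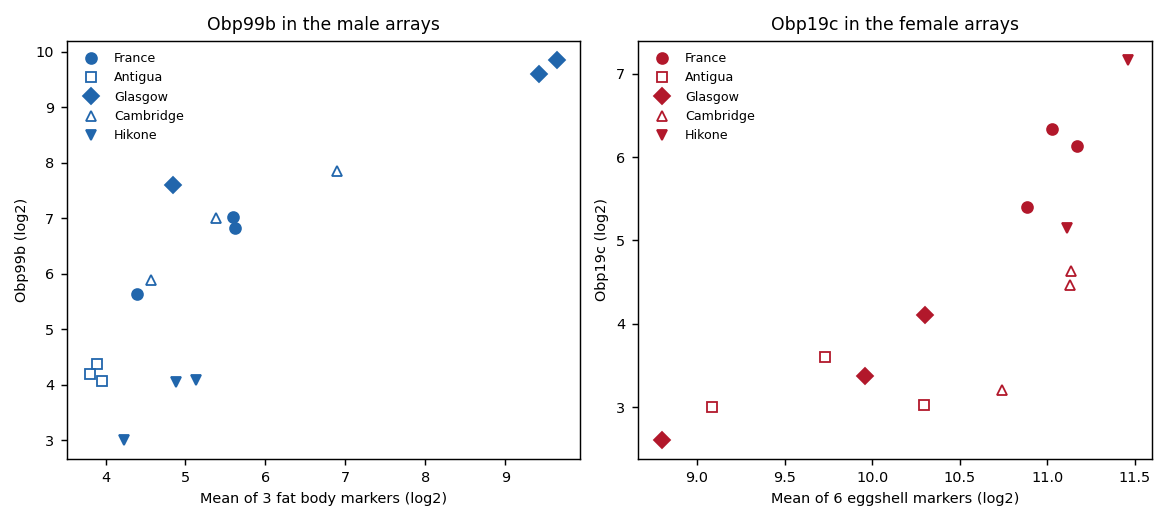
Left, Obp99b (log2, vertical axis) against the mean of 3 fat body markers (log2, horizontal axis) in the 15 male arrays; right, Obp19c against the mean of 6 eggshell markers in the 14 female arrays. Points are arrays and symbols are strains; Glasgow males 1 and 3 lie at 9.65 and 9.42 on the left, and the Hikone array with the highest Obp19c, 7.17, also has the highest eggshell mean, 11.46.

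Obp19c ran against the other members called for sex. It was higher in females by 2.0 (difference male minus female -2.0 ± 0.19, adjusted p 1.11e-05), although it lies next to Obp19b and Obp19d on the X chromosome, both of which were higher in males. The male arrays of Obp19c all lay between 2.23 and 2.70, within the range of the receptor genes, so no fold is given. The female arrays read 6.34, 5.40 and 6.13 in France, 7.17 and 5.15 in Hikone, 4.63, 4.46 and 3.20 in Cambridge, 2.61, 4.11 and 3.37 in Glasgow and 3.02, 3.00 and 3.60 in Antigua. Females lay above males in 4 strains and overlapped with them in Glasgow, through 1 array at 2.61. The mean of 6 eggshell markers, genes of the follicle cells that build the egg's coat, was 10.88 to 11.17 in France, 11.12 and 11.46 in Hikone, 10.74 to 11.14 in Cambridge, 8.80 to 10.30 in Glasgow and 9.09 to 10.30 in Antigua females. Glasgow and Antigua, with the lowest eggshell means, thus also had the lowest means of Obp19c, and all 6 eggshell markers were at least 5 in some group. Cambridge male 1, with an eggshell mean of 6.93, read 2.68 for Obp19c, beside 2.65 and 2.58 in the other Cambridge males. This is no test of eggshell tissue, since Cambridge females, with eggshell means of 10.74 to 11.14, themselves read only 3.20 to 4.63. The part of eggshell tissue in the result was not tested. Strain differences of Obp19c in females were called with an adjusted p of 0.00694, but with 1 array left out at a time the call was lost in 23 cases (adjusted p up to 0.0457), all except those of France female 2, Glasgow female 2, Cambridge females 1 and 3 and both Hikone females.

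Obp99a showed the clearest reversal between strains. In Cambridge the females read 9.82, 10.77 and 10.52 and the males 9.21, 9.68 and 9.57, so that females were higher without overlap. In Antigua the females read 8.05, 8.08 and 8.46 and the males 10.39, 10.70 and 10.74. The other strains had the males on top too, by 2.07 in Glasgow, 1.41 in Hikone and 0.60 in France, against -0.88 in Cambridge and 2.41 in Antigua. The interaction was called for Obp99a (adjusted p 2.51e-05), as were sex (1.12 ± 0.09 higher in males, 2.17-fold, adjusted p 1.71e-06), strain in females (2.46e-06) and strain over both sexes (0.00717). The call over both sexes was lost without 22 of the 29 arrays taken in turn, with an adjusted p of up to 0.0546, the exceptions being France male 1, Antigua female 3, Cambridge male 1, Cambridge females 1 and 2 and both Hikone females.

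Of the 116 genes 3 were called for the interaction (Obp8a, Obp56d and Obp99a), 8.33% of the 36 binding protein genes and 2.59% of the members, where 2.56% of all probe sets and 0.92% of those under 5 were called. For Obp56d the sexes lay 2.02 apart in Glasgow, with 9.91, 10.05 and 9.59 in females and 11.93, 12.04 and 11.64 in males. In France the mean difference was -0.02 and in Hikone -0.13, both with overlap. The interaction of Obp56d (adjusted p 0.00145) was lost without Glasgow male 1, Glasgow male 2 or Glasgow female 3, with an adjusted p of up to 0.0149, and after centring on the probe sets under 5 (0.0119).

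Strain was then tested over both sexes and within each sex. Over both sexes 41 of the 116 genes were called, where 15.8% of all probe sets and 13.1% of the probe sets under 5 were called. In females 7 were called, beside 6.53% of all probe sets and 1.6% of those under 5, and all 7 were binding protein genes (Obp19c, Obp56a, Obp56d, Obp56e, Obp56g, Obp83b and Obp99a). In males 22 were called, beside 9.67% of all probe sets and 6.54% of those under 5, namely 8 binding protein genes and 14 receptor genes. With each array left out in turn the count ran from 10 to 51 over both sexes and from 5 to 26 in males. The share of all probe sets ran from 9.93% to 16.7% and from 6.67% to 10.4%. With arrays centred on the probe sets under 5 the count was 10 and 9, beside 12.1% and 8.85% of all probe sets. Of the receptor genes 0 were called in males when France male 2 or 3 or Glasgow male 2 or 3 was left out, or when males were fitted on their own.

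Obp56a had the strongest strain difference among the binding protein genes, over both sexes (adjusted p 1.05e-08) and in females (1.85e-08). Both France and Hikone stood high, with 9.20 to 10.24 on the 6 France arrays and 10.08 to 10.53 on the 5 Hikone arrays, whereas Antigua, Glasgow and Cambridge lay between 6.03 and 9.07. France and Hikone did not overlap with the other strains, in either sex. In females the lowest values were those of Glasgow, 6.66, 7.13 and 6.03, and the range of group means was 3.85 (14.5-fold), against 1.93 in males (3.82-fold). Strain in males missed the threshold for Obp56a (adjusted p 0.0126) and passed it after centring on the probe sets under 5.

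France stood low for Obp69a and Obp83b. For Obp69a the male arrays read 5.29, 5.25 and 5.17 in France and 5.98, 5.66 and 5.46 in Hikone, against 7.15, 6.79 and 7.03 in Antigua, 7.62, 7.85 and 7.98 in Glasgow and 8.08, 8.01 and 7.51 in Cambridge. The range of its male group means was 2.63 (6.19-fold), with an adjusted p of 1.36e-07 in males and 2.14e-07 over both sexes, and females of France and Hikone were also the lowest. Obp83b read 8.81, 8.28 and 8.46 in France males, below all other males at 9.41 to 10.43, and strain was called over both sexes (adjusted p 3.43e-05), in females (3.45e-04) and in males (9.02e-04). The call in males was lost without France male 2 or 3 (adjusted p up to 0.0325). In females Obp83b was low in Glasgow too, with 6.80, 6.90 and 7.01 beside 6.91, 7.08 and 6.74 in France.

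Glasgow females were the lowest of the 5 female groups for 12 of the 18 genes with a group mean of at least 5, where this held for 23.5% of all probe sets at that level. Among them were Obp19d with 9.04, 9.04 and 8.87 and Os-C with 4.58, 5.16 and 4.65. The mean of 5 eye markers was also lower in Glasgow females, 6.69 to 7.08, than in other females, 7.67 to 8.90, and the male arrays lay between 8.78 and 10.08. The part of head RNA in these values was not tested.

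The receptor genes stayed within a narrow band. Their values ran from 1.07 to 4.10 over all 29 arrays, and the range of group means in a gene had a median of 0.33 in males and 0.22 in females, beside 0.30 and 0.21 for all probe sets under 5. For sex, strain in females and the interaction 0 of the 80 receptor genes were called with limma and Bonferroni adjustment. At an unadjusted p below 0.05 there were 74 for sex, 77 for strain in females and 52 for the interaction. With Benjamini-Hochberg in place of Bonferroni 66, 57 and 1 were called, where the shares of all probe sets were 77.5%, 44.9% and 19.6%. In 79 of the 80 the female mean was higher, by at most 0.14, the exception being Gr98a at 0.05 with 3.75, 3.90 and 4.03 in Antigua males.

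For strain 27 receptor genes were called, 17 odorant and 10 gustatory, which is 33.8% of the 80, and in males 14 were called, 9 odorant and 5 gustatory. Or85e had the lowest p (adjusted p 7.43e-04 over both sexes and 0.00209 in males), at 2.83, 2.76 and 2.73 in France males and 3.13, 3.23 and 3.17 in Glasgow males. Or1a followed with an adjusted p of 0.00117, at 2.58, 2.52 and 2.49 in France males and 2.86, 2.93 and 2.91 in Glasgow males, and Gr89a, a gustatory receptor of bitter-sensing neurons, with 0.00186. The same order recurred in gene after gene, as France males were the lowest of the 10 groups for 78 of the 80 receptor genes. The median of the 80 receptor genes on an array was 2.42 to 2.52 in France males and 2.79 to 2.81 in Cambridge females, and the median of all probe sets under 5 moved alongside, from 2.69 to 2.75 in France males and 2.94 to 2.97 in Cambridge females. Centring each array on the probe sets under 5 left 2 receptor genes called for strain (Or85e with 0.00337 and Gr89a with 0.00973), 1 in males (Or85e) and 1 for sex (Or85e, 0.00364). Leaving out France male 2, France male 3, France female 1 or France female 3 gave 10 members called for strain in each case.

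**Figure D4:**
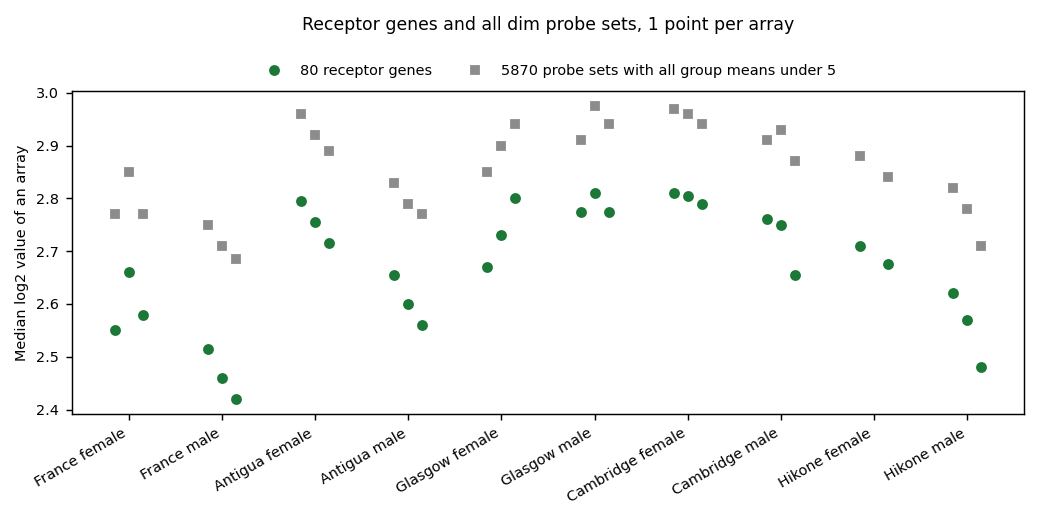
Median log2 value on each array (vertical axis) of the 80 receptor genes (circles) and of all 5870 probe sets with every group mean under 5, which hold the receptors (squares), by group (horizontal axis, 1 point per array). Circles and squares rise and fall together, from 2.42 to 2.52 (circles) in France males to 2.79 to 2.81 in Cambridge females.

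Receptors were also counted by role. Of the 9 sweet receptors listed 4 were measured and 0 called in any test with limma, although at an unadjusted p below 0.05 all 4 passed for sex, for strain and for strain within each sex. Of 6 bitter receptors 5 were measured, of which 3 were called for strain and 2 in males (Gr33a and Gr89a in both). Both carbon dioxide receptors were measured, with Gr63a called for strain (adjusted p 0.00762) and Gr21a not. The receptors of the male pheromone cis-vaccenyl acetate and of fly odours, Or67d and Or47b, read 2.65 to 3.19 and 2.03 to 2.36, and of these Or47b was called for strain in males (adjusted p 0.00774). Among all probe sets under 5, 13.1% were called for strain and 6.54% in males, and among the 80 receptor genes 33.8% and 17.5%. After centring on the probe sets under 5, only Gr89a of the receptors counted or named in this paragraph stayed called for strain, and none in males.

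The order of groups was counted over all members under 5, of which 80 are receptor genes and 18 binding protein genes. Of these 98, France females were the lowest of the female groups in 94 and Cambridge females the highest in 94, where this held for 82.8% and 71.5% of all probe sets under 5. France males were the lowest male group in 94 (75.9% of probe sets under 5) and Glasgow males the highest in 93 (75.4%). Called for strain were 7 binding protein genes of this kind (Obp8a, Obp46a, Obp50e, Obp58c, Obp59a, Obp73a and Obp84a), and after centring on the probe sets under 5 only Obp8a of these remained, with Obp59a called in males (adjusted p 0.00559). Obp59a, which is needed for sensing humidity, read 4.0, 3.90 and 4.20 in Glasgow males and 3.06 to 3.67 in all other male arrays. A probe set shared by Obp57d and Cpr57A, left out for its pair of symbols, had a group mean of 4.29 in Glasgow males and 2.42 to 2.84 in the other groups.

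Among 30 other genes of smell and taste, 25 were measured and 9 reached a group mean of 5. Of the 25, 6 were called higher in males and 1 higher in females, where 18.1% and 28.8% of all probe sets were called. Phk-3, of the chemosensory protein family, was higher in males by 2.12 (adjusted p 1.05e-08). PebIII, a member of the same family made in the ejaculatory bulb, was higher by 1.28 (1.61e-11). The antennal protein a10, of that family too, was higher by 1.14 (7.79e-05). The transcription factor acj6, which sets the identity of olfactory neurons, was higher in males by 0.92 (adjusted p 3.06e-06), and the arrestins Arr1 and Arr2, which act in the eye and the antenna, by 1.42 and 1.07. The sex determination gene dsx was higher in females (-0.88, adjusted p 0.00269). Orco read 1.90 in males and 1.92 in females on average, and the pheromone binding protein lush 4.32 and 4.04, and neither was called. For strain 7 of the 25 were called (15.8% of all probe sets), 3 in females (6.53%), 4 in males (9.67%) and 2 for the interaction (2.56%). Of the 7, Ir25a, ppk25 and ato had all group means under 5, where 13.1% of probe sets were called.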

How the data were processed

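Deposited values are log2 GCRMA summaries, which the authors adjusted for the GC content of the probes and quantile normalised, and they were used as deposited. The version of GCRMA is not given in the sources used here. The 44 array controls were left out and 13966 probe sets tested. Means of the 10 groups were estimated in 1 linear model (limma 3.58.1, R 4.3.3; variances moderated by empirical Bayes). The contrast for sex set the average of the male groups against that of the female groups, and strain (over both sexes, in females, in males) and the interaction were tested with moderated F. All p were adjusted by Bonferroni over 13966 probe sets and called below 0.01. The code was tested on simulated data.

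The members, role lists and markers were chosen with earlier results of these data known. The genes named were members called in any test (up to 12 a test), binding proteins with a group mean of at least 8, the 2 members nearest 5 on each side, and list members, and not all of them are described. Or67d, Or47b, Gr98a and the probe set of Obp57d and Cpr57A were added after their values were seen. Replicates are separate RNA extractions, and the number of arrays limits the precision. Alternatives were other adjustments and thresholds, centring, repeated normalisation, filters, array weights, a variance trend, each sex alone, the replicate number as a block and each array left out. Centring on the probe sets under 5 and counting the members of at least 5 alone were added after the data were seen.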

Additional observations from a re-analysis of the deposited data

Results flagged for a closer look

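For 3 genes the difference between the sexes differed among the 5 strains by a test of the interaction itself (limma, Bonferroni-adjusted). These were Obp8a (adjusted p 1.36e-05), where males exceeded females by 1.69 in Glasgow and 0.09 in France, Obp99a (2.51e-05), where males exceeded females in 4 strains and females exceeded males in Cambridge, and Obp56d (0.00145), where the sexes lay 2.02 apart in Glasgow and overlapped in France and Hikone. Groups of 2 or 3 arrays were not tested for single outlying values of a gene.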

How the results depend on the processing

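For sex, 15 members were called, and 93 under Benjamini-Hochberg, 101 with arrays centred on their medians, 66 after repeated quantile normalisation and 31 with array weights, whose estimation stopped before it converged. Calls higher in males numbered 18, 12, 12 and 14 under these, and calls higher in females 75, 89, 54 and 17. Of all probe sets 77.5%, 72.2%, 56.1% and 54.6% were called for sex under the same settings. For strain over both sexes the count was 41, and it was 114 under Benjamini-Hochberg, 71 at a threshold of 0.05, 7 at 0.001, 13 after repeated normalisation, 8 among probe sets of at least 5, 67 with a variance trend, 99 with array weights, 10 with arrays centred on the probe sets under 5 and 7 among the members of at least 5. Of the probe sets tested, 74.8%, 24.6%, 7.59%, 11.5%, 19.8%, 21.8%, 44.7% and 12.1% were called under these settings in turn, up to the centring. For strain in females the count of 7 became 76 under Benjamini-Hochberg, 32 with array weights and 1 with females fitted on their own. The last leaves fewer arrays. Of all probe sets 44.9%, 31% and 0.909% were called for strain in females under these. For strain in males the count of 22 became 109 under Benjamini-Hochberg, 52 at 0.05, 5 at 0.001, 7 after repeated normalisation, 4 among probe sets of at least 5, 45 with a variance trend, 77 with array weights, 3 with males fitted on their own, 9 with centring on the probe sets under 5 and 3 among the members of at least 5. Of the probe sets tested, 62%, 16.8%, 5.26%, 8.18%, 13.2%, 14.4%, 24.7%, 3.41% and 8.85% were called in turn, up to the centring. For the interaction the count of 3 became 16 under Benjamini-Hochberg, 5 at 0.05, 5 after repeated normalisation and 7 with array weights. Of all probe sets 19.6%, 3.79%, 2.63% and 10.1% were called for the interaction under these. The causes were not tested. No call for sex changed its direction.

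With the replicate number as a block, 14 members were called for strain in males, 32 for strain over both sexes and 15 for sex. For strain in females 6 were called and for the interaction 3. The shares of all probe sets were 8.24%, 13.7%, 45.6%, 5.45% and 2.03% in that order. Arrays of the same number did not deviate together, with a mean correlation of -0.004 between them, and 8 of 29 arrays correlated best with their own number, so the number was taken as a name.

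With each array left out in turn, counts ran from 13 to 15 for sex, 10 to 51 for strain, 5 to 8 for strain in females, 5 to 26 for strain in males and 2 to 5 for the interaction, the highest of these without Cambridge female 1. The count for strain moved by over 1.5 times without any of 22 arrays, the exceptions being France male 1, France female 2, Antigua male 1, Glasgow female 1, Cambridge male 3 and Hikone males 1 and 3. That for strain in males did so without any of 21, the exceptions being France females 1 and 2, Antigua male 1, Glasgow females 1 and 3, Cambridge male 3 and Hikone males 1 and 3. With 1 array left out, the shares of all probe sets ran from 44.7% to 47.8% for sex and 9.93% to 16.7% for strain. They ran from 4.7% to 9.8% in females, 6.67% to 10.4% in males and 1.93% to 3.01% for the interaction. Values under 5 moved together across arrays, which limits what can be read from the receptor genes.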
